A study of Mus musculus with 6 samples.

Results

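The genes described here encode the vacuolar proton pump and a panel of lysosomal hydrolases, lysosomal membrane proteins and cholesterol carriers, with the transcription factor Tfeb. They were taken by symbol from the deposited comparison of wild-type and Pim1 knockout myeloid-derived suppressor cells (MDSCs), immature granulocytic and monocytic cells that dampen T cell responses. Every row marked as tested whose symbol began with Atp6v or Atp6ap was kept, apart from Atp6v0d2, together with 21 listed symbols. The rule gave 39 genes of the 11079 tested, of which 18 were pump genes, 13 were hydrolases and 8 were the other proteins. A further 7 pump rows matched by name were not tested by the authors.

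The cells were grown from femur marrow for 7 days with 40 ng/mL of both GM-CSF and IL-6, and were CD11b+ Gr1+ per the labels. The wild-type group came from C57BL/6 mice and the knockout group from Pim1-/- mice, which the labels also place on the C57BL/6 strain. Both groups received the same cytokines, and the labels used here give neither the age nor the sex of the animals. Each genotype had 3 libraries, called biological replicates in the design text, which the authors merged into 1 value for each gene in each genotype. Hence no pooled level here carries a spread between libraries. What variation the deposited test statistic takes in is not given in the sources used, so that of the errors below is unknown too.

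The lysosome is the acidic compartment in which cells break down proteins, lipids, glycans and material taken up from outside. Its acidity is made by the vacuolar ATPase, a rotary pump whose cytosolic V1 sector burns ATP and whose membrane V0 sector carries the protons. Hydrolases with an acidic optimum fill the lumen, and heavily glycosylated membrane proteins such as LAMP1 and LAMP2 line the inner face. Many of these genes share a palindromic promoter element, the CLEAR box, which is bound by TFEB and related factors and lets lysosomal genes be induced together. Phagocytes are rich in lysosomes, which serve the killing of microbes and the digestion of engulfed cells.

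A selection of promoters is shown first, from 2 called genes and 6 genes whose windows hold CACGTG, the core letters of this element. A match to CACGTG alone does not identify a CLEAR box or tie a gene to Tfeb. Each window runs from 250 bases before to 50 bases after the annotated start of the gene, in RefSeq coordinates of GRCm38.p6, printed 5′ to 3′ on the strand of the gene. Capitals mark CACGTG and, where the flanking bases also match, the longer TCACGTGA, which contains it. Both motifs are palindromes, so the search covers both strands. The first pair of windows belongs to genes called different between the genotypes, and neither window holds the motif. The last 20 bases of the Atp6v0a1 window were in none of its GENCODE M21 transcripts, so its annotated start is uncertain:
Atp6v0a1, GRCm38.p6 chr11:101010148-101010447, + strand: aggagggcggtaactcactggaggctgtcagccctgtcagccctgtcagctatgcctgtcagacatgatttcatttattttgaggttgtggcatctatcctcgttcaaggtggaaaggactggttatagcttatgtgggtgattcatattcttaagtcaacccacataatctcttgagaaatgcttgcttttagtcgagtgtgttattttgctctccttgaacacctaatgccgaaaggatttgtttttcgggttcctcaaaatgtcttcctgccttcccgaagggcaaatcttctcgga
Man2b1, GRCm38.p6 chr8:85083019-85083318, + strand: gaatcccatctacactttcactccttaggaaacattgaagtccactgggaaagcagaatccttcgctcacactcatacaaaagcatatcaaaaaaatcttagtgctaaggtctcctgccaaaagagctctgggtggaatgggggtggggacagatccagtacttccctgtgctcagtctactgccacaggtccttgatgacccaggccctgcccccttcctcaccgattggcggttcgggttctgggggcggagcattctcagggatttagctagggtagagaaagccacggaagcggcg
The next 3 belong to pump genes that were not called, and each holds TCACGTGA:
Atp6v1a, GRCm38.p6 chr16:44139210-44139509, - strand: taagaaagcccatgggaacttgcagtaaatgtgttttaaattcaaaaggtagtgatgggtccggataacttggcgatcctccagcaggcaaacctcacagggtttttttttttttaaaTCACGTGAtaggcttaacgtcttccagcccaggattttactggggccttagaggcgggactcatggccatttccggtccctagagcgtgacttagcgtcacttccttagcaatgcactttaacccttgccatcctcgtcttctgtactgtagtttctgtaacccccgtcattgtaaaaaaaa
Atp6v0d1, GRCm38.p6 chr8:105566015-105566314, - strand: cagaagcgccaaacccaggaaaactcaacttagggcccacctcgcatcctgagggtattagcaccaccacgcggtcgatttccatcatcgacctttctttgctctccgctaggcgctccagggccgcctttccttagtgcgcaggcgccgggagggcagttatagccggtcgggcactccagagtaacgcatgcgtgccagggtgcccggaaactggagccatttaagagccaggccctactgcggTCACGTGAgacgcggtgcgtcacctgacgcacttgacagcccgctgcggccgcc
Atp6v0e, GRCm38.p6 chr17:26676146-26676445, + strand: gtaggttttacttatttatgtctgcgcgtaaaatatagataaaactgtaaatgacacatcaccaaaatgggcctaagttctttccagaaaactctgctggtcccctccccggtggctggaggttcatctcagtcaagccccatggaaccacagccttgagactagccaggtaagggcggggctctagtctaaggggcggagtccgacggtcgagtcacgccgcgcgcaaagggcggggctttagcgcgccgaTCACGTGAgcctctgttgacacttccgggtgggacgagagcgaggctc
The last 3 belong to a hydrolase, an ion channel and a membrane protein that were not called:
Gla, GRCm38.p6 chrX:134600956-134601255, - strand: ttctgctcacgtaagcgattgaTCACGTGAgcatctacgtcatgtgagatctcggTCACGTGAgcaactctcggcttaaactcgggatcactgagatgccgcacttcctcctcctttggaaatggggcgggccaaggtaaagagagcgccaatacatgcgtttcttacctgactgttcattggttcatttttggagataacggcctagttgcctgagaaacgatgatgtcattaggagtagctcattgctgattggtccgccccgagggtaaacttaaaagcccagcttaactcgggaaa
Mcoln1, GRCm38.p6 chr8:3500269-3500568, + strand: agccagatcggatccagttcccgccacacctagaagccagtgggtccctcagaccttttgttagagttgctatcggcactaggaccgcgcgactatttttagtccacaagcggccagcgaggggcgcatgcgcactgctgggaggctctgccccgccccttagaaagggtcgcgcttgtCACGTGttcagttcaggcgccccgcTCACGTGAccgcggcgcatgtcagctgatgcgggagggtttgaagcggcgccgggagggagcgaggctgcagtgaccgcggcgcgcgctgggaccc
Lamp1, GRCm38.p6 chr8:13158911-13159210, + strand: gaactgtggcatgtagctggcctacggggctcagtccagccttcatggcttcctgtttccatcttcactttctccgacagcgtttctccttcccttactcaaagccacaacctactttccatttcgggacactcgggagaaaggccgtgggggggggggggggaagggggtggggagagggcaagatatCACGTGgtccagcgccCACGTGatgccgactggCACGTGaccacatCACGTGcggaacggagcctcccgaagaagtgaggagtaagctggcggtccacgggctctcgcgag

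A promoter window was found for 31 of the 39 genes, and those of Asah1, Atp6v0a2, Atp6v0c-ps2, Atp6v1b2, Atp6v1c1, Atp6v1g1, Atp6v1h and Npc1 were not matched. CACGTG stood in the windows of 10 of the 31 genes (32.3%), against 8.09% of all 27025 genes with a window. TCACGTGA stood in 5 of the 31 (16.1%), against 1.12% of all genes. Among pump genes 4 of 12 held CACGTG, and among the hydrolases, membrane proteins and Tfeb 6 of 19 did. In the Atp6v0d1 window the longer motif began 4 bases before the start, and in that of Atp6v1a 132 bases before it. The window of Gla, the enzyme deficient in human Fabry disease, held it at 228 and 195 bases before the start. The window of Lamp1 held CACGTG 4 times within 61 bases of the start. A match of letters is a description and not evidence of binding.

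The targeted gene checked the labels. Pim1, the cytokine-induced kinase that the mice lack, was at 90.2 in wild type and 22.7 in Pim1 knockout by the authors' deposited table (adjusted p = 0.000831), 3.98-fold lower. Values are read as FPKM, a level per transcript length and per total of fragments. As for the labelled cell type, Itgam, which encodes CD11b, was at 139 in wild type and 152 in knockout, and the Gr1 antigen gene Ly6c2 at 392.4 and 997.1, by the authors' deposited table. Ly6g, the other Gr1 antigen gene, had no row of that symbol among those read here. Genes listed as neutrophil markers had 7 higher and 0 lower of 11 tested, 63.6% called beside 13.5% of all tested genes. Their summed level was 2773 in wild type and 9740 in knockout, and whether the share of neutrophils differed was not tested. Most of that sum came from S100a8 (1308 and 6257) and S100a9 (369.3 and 2029) by the authors' deposited table. For markers of monocytes the counts were 6 higher and 2 lower of 12, 66.7% called (sums 1295 and 1759). Plac8 (2.08 in wild type and 55.3 in knockout) was among the higher and Fn1 (386.0 and 147.3) among the lower, by the authors' deposited table. Over all tested genes 6.79% were higher and 6.73% lower. Those of macrophages stood at 2 higher and 1 lower of 11 (sums 4151 and 4831). Osteoclast and fusion markers were at 1 higher and 4 lower of 7 (sums 434.8 and 233.7), with Calcr at 0 in both pools. Dendritic cell markers were at 2 higher and 1 lower of 6 (sums 829.6 and 1104), with a median log2 fold change of -0.24. Bst2 (245.3 and 646.6) and Ccr7 (1.61 and 5.35) were the higher ones and Itgax (59.0 and 24.0) the lower. H2-Ab1, at 521.8 and 426.6, was not called (adjusted p = 0.154, the authors' deposited table). Markers of eosinophils, basophils and mast cells stood at 1 higher and 2 lower of 5 (sums 13.01 and 11.2). B, T, NK and erythroid markers summed to 1.98 and 2.51, with Ms4a1, Ncr1 and Hbb-bs among those at 0 in both. The part of these shifts in the lysosomal values was not tested, and in such bulk pools fewer cells of a type and less RNA per cell cannot be told apart. The Y-linked gene Ddx3y was at 2.56 in wild type and 0.0103 in knockout (adjusted p = 0.385) by the authors' deposited table. Eif2s3y, also Y-linked, was at 6.79 and 0.0191 (adjusted p = 0.537) by the authors' deposited table. The Y-linked Kdm5d and Uty, not tested by the authors, were at 0.454 and 0.462 in wild type and at 0 in knockout. Xist, expressed from the inactive X chromosome, was at 5.21 and 7.21 (adjusted p = 0.0262) by the authors' deposited table. Sex and genotype cannot be told apart here.

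In the pooled values most of the 39 genes differed little between the genotypes. The panel leaves out the pump gene Atp6v0d2, which is described below. Of the 39 genes, 2 were higher in Pim1 knockout, 2 were lower and 35 were not called at an adjusted p under 0.05 by the authors' deposited table. That is 10.3% of them called, beside 13.5% of all tested genes, and by direction the whole table had 6.79% higher and 6.73% lower. The share called was thus near the background and says nothing particular about these genes. Both genes that rose encode pump subunits, Atp6v0a1 and Atp6v1g1, and both that fell encode hydrolases, Asah1 and Man2b1. In the table's own coordinates, whose build is not settled, Atp6v0a1 lies on chromosome 11 (100870766 to 100925031), Atp6v1g1 on chromosome 4 (63205799 to 63211735), and Asah1 (42425997 to 42460051) and Man2b1 (87607168 to 87622638) on chromosome 8. None of these differences reached 2-fold. The median log2 fold change of the 39 was -0.00053, beside 0.01 over all tested genes, and 19 lay above 0 and 20 below. The median absolute log2 fold change was 0.13, against 0.19 over all tested genes, and 31 of the 39 (79.5%) lay within 0.25 of 0, against 61.3% of all tested genes. The 39 genes had a median mean level of 140, against 7.76 over all tested genes. Sizes of fold changes were not compared at matched levels.

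These genes were abundant. Their median place in the order of tested genes by mean level was percentile 93.3, and 26 of the 39 lay above percentile 90. The mean of both genotypes ran from 0.870 for Atp6v1g2 to 1743 for Cd63. When only means of 10 or more were kept and p was adjusted again, 4 of 34 were called (11.8%), beside 14.6% of all genes kept. At a mean of at least 1 the count was 4 of 38, beside 13.4%. At a deposited adjusted p under 0.01 it was 2 of 39, beside 8.78%, and under 0.1 it was 5 of 39, beside 17.4%.

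**Figure D1:**
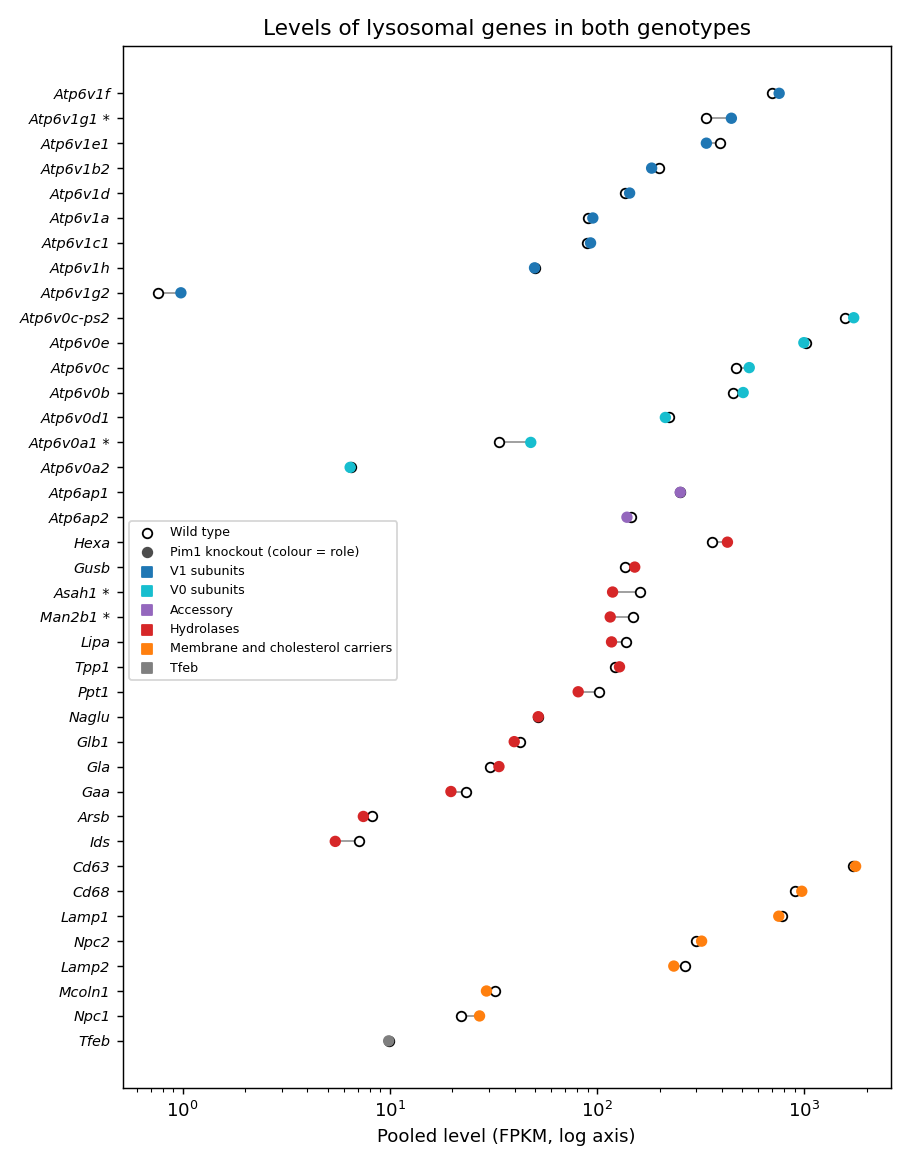
Pooled level in FPKM (log axis) of each of the 39 genes, wild type as open circles and Pim1 knockout as filled circles coloured by role, ordered by mean level within a role; an asterisk marks an adjusted p under 0.05. The circles of most genes nearly coincide, with levels from under 1 for Atp6v1g2 to 1743 for Cd63.

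The error printed here is the ratio of the log2 fold change to the authors' test statistic, and had a median of 0.23 over the 39 genes (range 0.23 to 0.62). On that error the 95% interval of 37 genes lay within a 2-fold change either way, and that of 18 within 1.5-fold. The exceptions to the 2-fold limit were Atp6v0c and Atp6v1g2. The deposited p-values imply an error narrower than this, by a median factor of 1.74. That median leaves out tested genes with the smallest or the largest p-values or with a statistic near 0. On the narrower error 38 intervals lay within 2-fold and 30 within 1.5-fold. Taking the test statistic for a normal deviate gave 0 calls among the 39 genes, beside 3.31% of all genes with such a statistic. All 4 calls therefore rest on the deposited p-values, under which 5 of the 39 had an unadjusted p under 0.05.

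**Figure D2:**
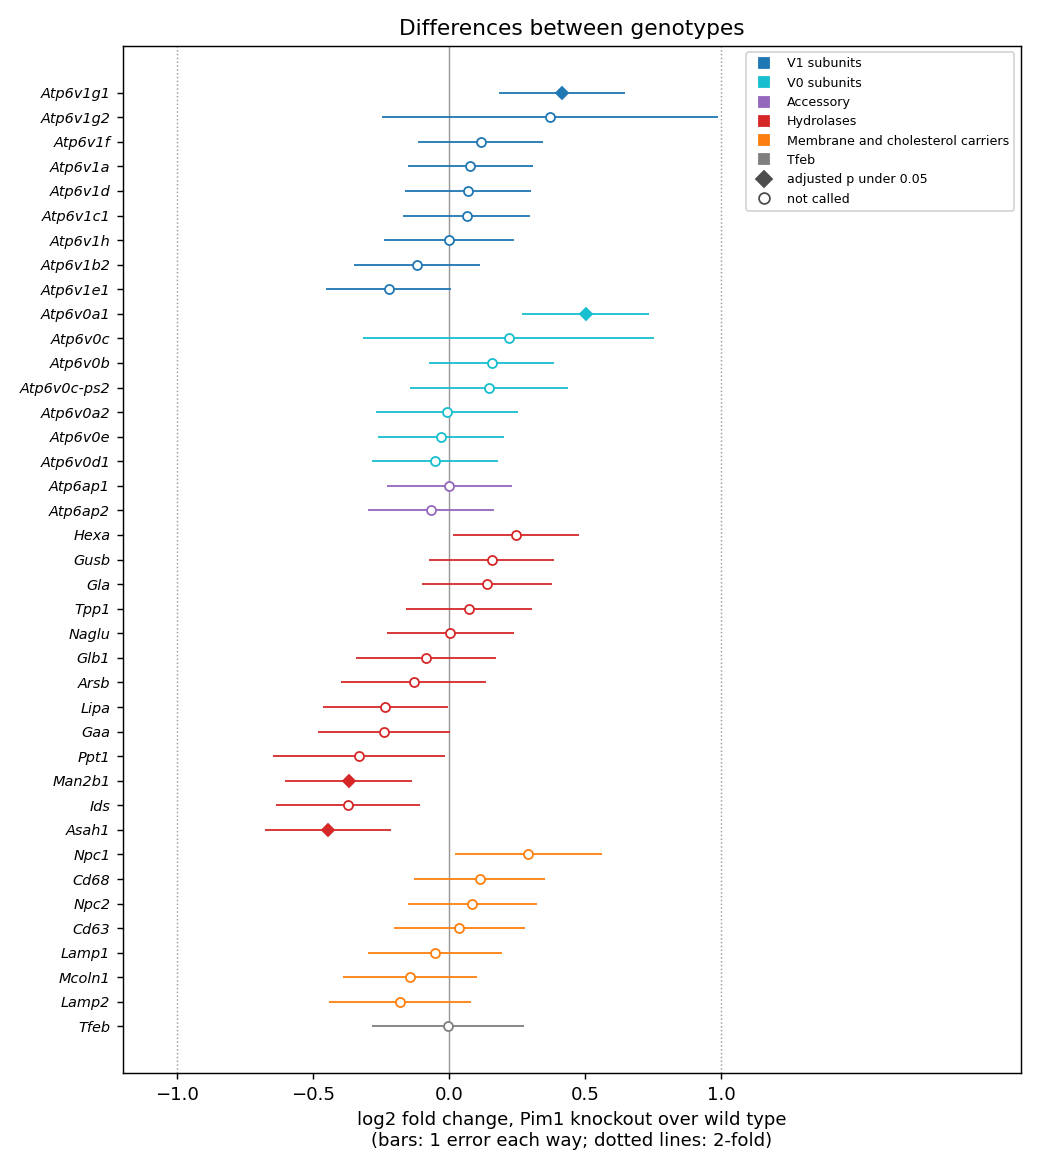
Log2 fold change of each gene, Pim1 knockout over wild type, with bars of 1 error each way and dotted lines at 2-fold. Filled diamonds mark the 4 called genes, of which Atp6v1g1 and Atp6v0a1 lie to the right of 0 and Man2b1 and Asah1 to the left, and no point reaches a dotted line.

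Among the V1 subunits, 1 of 9 was called. Atp6v1g1 encodes the G subunit, part of the peripheral stalks that hold the catalytic head in place. It rose from 333.1 in wild type to 443.9 in knockout by the authors' deposited table (log2 fold change 0.41, error 0.23, adjusted p = 0.0199). The other stalk subunit, E, went the other way without being called: Atp6v1e1 was at 392.3 and 336.3 (log2 fold change -0.22, adjusted p = 0.298) by the authors' deposited table.

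The catalytic A subunit and its partner B form the ATP-splitting hexamer. Atp6v1a was at 90.3 in wild type and 95.3 in knockout, and Atp6v1b2 at 198.6 and 183.0, with adjusted p = 0.810 and 0.675 by the authors' deposited table. The central rotor subunits D and F were also close between the genotypes, Atp6v1d at 136.7 and 143.3 and Atp6v1f at 697.0 and 754.7 (adjusted p = 0.839 and 0.681, the authors' deposited table). Subunits C and H, which regulate the joining of the sectors, were at 88.9 and 92.9 for Atp6v1c1 and at 49.9 and 49.8 for Atp6v1h by the authors' deposited table. Atp6v1g2, a G isoform best known from neurons, was near the floor at 0.759 and 0.981, with the largest error of the 39 genes, 0.62.

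Among the 7 rows of the V0 sector, 1 was called. Atp6v0a1 encodes an isoform of the large a subunit, which lines the path of the protons and sets where in the cell the pump goes. It rose from 33.8 in wild type to 47.8 in knockout, 1.42-fold, by the authors' deposited table (log2 fold change 0.50, error 0.23, adjusted p = 0.00223). Its 95% interval, 0.05 to 0.96, was the only one of the 39 to exclude 0 on the wider error. Its neighbour on chromosome 11 in the coordinates of the table is Naglu, also one of the 39, with 6376 bases and no other row between them. Naglu was at 51.8 and 52.0 (adjusted p = 0.994) by the authors' deposited table.

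The proteolipid ring that turns with the protons is built from the products of Atp6v0b and Atp6v0c. Atp6v0b was at 454.4 in wild type and 506.0 in knockout (adjusted p = 0.527), and Atp6v0c at 465.5 and 541.4 (adjusted p = 0.761), by the authors' deposited table. A row named Atp6v0c-ps2, at 1562 and 1728, had the same locus in the table as Atp6v0c, so reads may be split between them and both values are uncertain. The error of Atp6v0c was 0.54, more than that of any other gene here except Atp6v1g2. Atp6v0d1, which couples the ring to the rotor, was at 221.1 and 213.2, and the small membrane subunit gene Atp6v0e at 1014 and 993.0, neither of them called (adjusted p = 0.880 and 0.936, the authors' deposited table). The accessory genes Atp6ap1 (251.7 in both) and Atp6ap2 (145.8 and 139.1), whose products help to assemble the pump, were not called either.

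Most subunits were supplied by 1 gene. The kidney-type genes Atp6v1b1, Atp6v0a4 and Atp6v1g3, the testis-type Atp6v1e2, and Atp6ap1l were listed at 0 in both genotypes, and Atp6v1c2 and Atp6v0e2 did not exceed 0.0550. The a and d subunits were the exceptions. Of the summed level of the a genes, Tcirg1 (a3, the isoform of osteoclast and immune cell lysosomes, not matched by the symbol rule) held 74.1% in wild type and 67.7% in knockout. Atp6v0a1 held 21.8% and 28.5%, and Atp6v0a2 4.17% and 3.83%. Tcirg1 itself was at 115.0 and 113.7 (adjusted p = 0.968, the authors' deposited table). For the d subunit, Atp6v0d2, an isoform of osteoclasts and fused macrophages that the rule leaves out, fell from 190.3 to 100.2 (1.90-fold, adjusted p = 0.000831, the authors' deposited table). Its share of the d genes was 46.2% in wild type and 32.0% in knockout, and the summed level of the pair was 411.4 and 313.4. Osteoclast and fusion markers, on which Atp6v0d2 itself stands, had the sums given above, and their part in this was not tested.

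**Figure D3:**
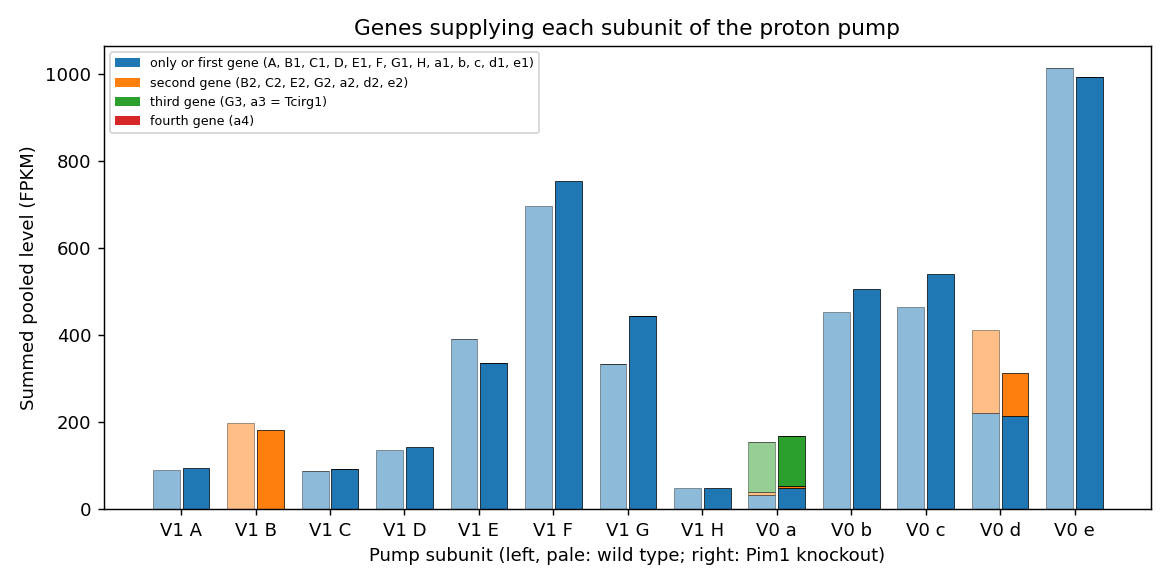
Summed pooled level in FPKM of the genes that encode each pump subunit, stacked by gene, with wild type pale on the left and Pim1 knockout on the right; the Atp6v0c-ps2 row is not included. The stacked a and d subunits are the ones with more than 1 gene at a visible level, and the d stack is shorter in knockout, 313.4 against 411.4.

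Among the 13 hydrolases, 0 were higher and 2 lower, 15.4% called beside 13.5% of all tested genes. Their median was -0.13 on the log2 scale, and 5 fold changes lay above 0 and 8 below. Asah1, acid ceramidase, which splits ceramide into sphingosine and fatty acid, fell from 161.7 in wild type to 118.6 in knockout, 1.36-fold, by the authors' deposited table. Its log2 fold change was -0.45 with an error of 0.23 (adjusted p = 0.00822, the authors' deposited table). Man2b1, the lysosomal alpha-mannosidase that trims N-glycans, fell from 149.4 to 115.5, 1.29-fold (log2 fold change -0.37, error 0.23, adjusted p = 0.0397), by the authors' deposited table. On the wider error both 95% intervals reached past 0, to 0.01 for Asah1 and 0.08 for Man2b1.

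Of the enzymes of glycosphingolipid breakdown, Asah1 was the one called. Hexa, a subunit of beta-hexosaminidase whose loss causes human Tay-Sachs disease, was the most abundant hydrolase, at 358.7 in wild type and 424.9 in knockout (adjusted p = 0.252, the authors' deposited table). Gla, alpha-galactosidase, was at 30.5 and 33.6, and Glb1, beta-galactosidase, at 42.2 and 39.8 (adjusted p = 0.609 and 0.813, the authors' deposited table). The fold changes of this class lay on both sides of 0.

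Of the enzymes that take apart glycosaminoglycans, 0 of 4 were called. Ids, iduronate sulfatase, the enzyme missing in human Hunter syndrome, came nearest to a call at 7.06 in wild type and 5.45 in knockout (log2 fold change -0.37, error 0.27, adjusted p = 0.0828, the authors' deposited table). Arsb, another sulfatase of the pathway, was low at 8.15 and 7.44. Gusb, beta-glucuronidase, was at 136.2 and 151.7 (adjusted p = 0.528, the authors' deposited table), and the remaining enzyme, Naglu, is described above with its neighbour.

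The remaining hydrolases act on glycogen, cholesteryl esters and proteins. Gaa, the acid glucosidase that digests glycogen in lysosomes, was at 23.3 in wild type and 19.7 in knockout, and Lipa, lysosomal acid lipase, at 138.0 and 117.3 (adjusted p = 0.289 and 0.269, the authors' deposited table). Ppt1, which removes fatty acids from proteins, was at 101.9 and 81.0 with a larger error than the other hydrolases, 0.32 (adjusted p = 0.258, the authors' deposited table). Tpp1, a peptidase, was at 121.8 and 128.1.

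Of the membrane proteins and cholesterol carriers 0 of 7 were called, and 4 had a fold change above 0 and 3 below. Cd63, a tetraspanin of late endosomes and exosomes, was the most abundant of all, at 1721 in wild type and 1765 in knockout (adjusted p = 0.929, the authors' deposited table). Cd68, the macrophage form of a lysosomal glycoprotein and a common marker of phagocytes, was at 898.5 and 970.5 (adjusted p = 0.712, the authors' deposited table). The LAMP proteins guard the lysosomal membrane, and LAMP2 also takes part in autophagy. Lamp1 was at 779.4 and 751.5 and Lamp2 at 265.5 and 234.2 (adjusted p = 0.888 and 0.513, the authors' deposited table).

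NPC2 lifts cholesterol from the lumen and passes it to NPC1 in the membrane for export. Npc1 was at 22.1 in wild type and 27.1 in knockout (log2 fold change 0.29, error 0.27, adjusted p = 0.231, the authors' deposited table). Npc2 was at 300.7 and 318.9 (adjusted p = 0.796, the authors' deposited table). Mcoln1, the calcium channel TRPML1 of the lysosomal membrane, was at 32.3 and 29.2 (adjusted p = 0.613, the authors' deposited table).

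Tfeb was at 9.89 in wild type and 9.86 in knockout (log2 fold change -0.0041, error 0.28, adjusted p = 0.996, the authors' deposited table). TFEB is controlled largely by its phosphorylation and place in the cell, which RNA levels do not measure. The 10 genes with CACGTG in their promoter window had log2 fold changes from -0.24 to 0.16 with a median of -0.04, and 0 of them were called. Over the 21 genes with a window but without the motif the range was -0.37 to 0.50 with a median of 0.04, and 2 were called. The upper end and 1 of the calls are those of Atp6v0a1, whose annotated start is uncertain as stated above. The window of Atp6ap2, also in this group, likewise ended in bases found in none of its transcripts. Beside these counts stand the 13.5% of all tested genes called. The called genes Asah1 and Atp6v1g1 had no window and are in neither group.

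Set against each other, the pump and the rest had medians on opposite sides of 0. The 18 pump genes had a median log2 fold change of 0.07, with 10 above 0 and 8 below, and the other 21 a median of -0.05, with 9 above and 12 below. The calls were 2 higher and 0 lower of 18 (11.1% called) against 0 higher and 2 lower of 21 (9.52% called). Over all tested genes 6.79% were higher and 6.73% lower, 13.5% together, so neither share called stood above the background. The difference between the groups was not tested. Without Atp6v0c-ps2 the pump median was 0.06 over 17 genes. It was 0.03 over 14 genes without the 4 pump rows within 10 Mb of Pim1 on chromosome 17, which are Atp6v0e, Atp6v0c, Atp6v0c-ps2 and Atp6v1g2. Summed levels were 6143 in wild type and 6527 in knockout for the pump, 1331 and 1295 for the hydrolases, and 4020 and 4096 for the membrane proteins and cholesterol carriers. Without Atp6v0c-ps2 the pump sums were 4581 and 4799. Of the 5 genes on the X chromosome (Gla, Lamp2, Ids, Atp6ap1 and Atp6ap2) 0 were called.

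**Figure D4:**
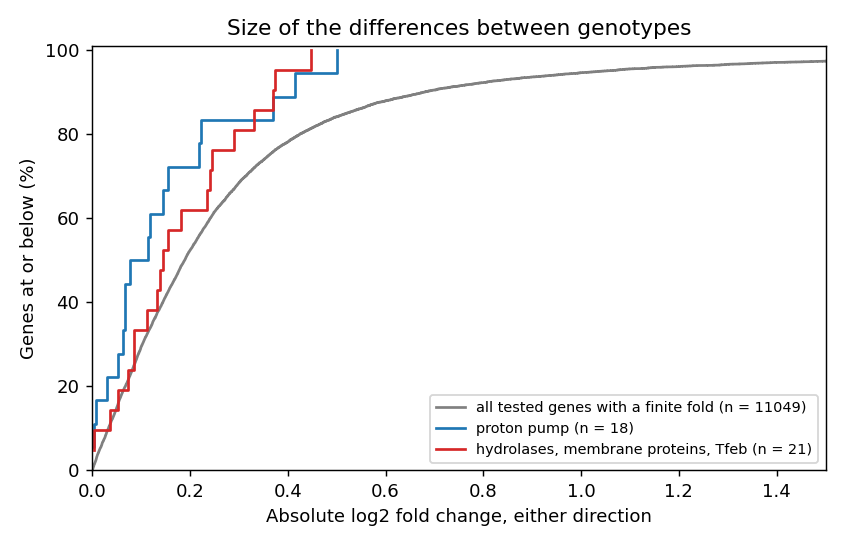
Cumulative share of genes (%) against absolute log2 fold change for the 18 pump genes, the other 21 genes and all tested genes with a finite fold. Both lysosomal curves end by 0.50, the value of Atp6v0a1, whereas the curve of all tested genes goes on beyond 1.5. The curves are not matched for level.

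Other genes of the pathway were counted in 7 lists. Of 139 tested, 6 were higher and 12 lower, 12.9% called beside the 13.5% of all tested genes, and the median was 0.02 on the log2 scale (0.0021 without genes within 10 Mb of Pim1, and -0.0089 after quantile normalization). Assembly and regulatory genes of the pump, with Tcirg1 and Atp6v0d2, had 0 higher and 1 lower of 12, the latter being Atp6v0d2. Other hydrolases and their activators had 2 higher and 3 lower of 30 (median -0.10). Acp5, the tartrate-resistant phosphatase of osteoclasts, fell from 153.4 to 54.9 (2.80-fold), and Hgsnat, an acetyltransferase of heparan sulfate breakdown, from 30.2 to 20.7 by the authors' deposited table. Lgmn, the asparaginyl endopeptidase legumain, rose from 205.4 to 294.1 (1.43-fold) by the authors' deposited table. Naaa and Sgsh are named although they fall outside the naming rule, a choice made on their values. Naaa, an amidase related to acid ceramidase, fell from 387.9 to 285.8, and Sgsh, heparan N-sulfatase, rose from 2.37 to 3.38, by the authors' deposited table.

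Other lysosomal membrane genes had 1 higher and 3 lower of 30 (median 0.03), 13.3% called beside 13.5% of all tested genes. Slc11a1, NRAMP1, which moves iron and manganese out of phagosomes, rose from 19.7 to 31.2 (1.58-fold) by the authors' deposited table. The sialic acid exporter Slc17a5 fell from 14.4 to 10.5 and Mcoln3, a relative of Mcoln1, from 3.47 to 2.07 by the authors' deposited table. Laptm4a, named after its values were seen, fell from 184.9 to 141.1 by the authors' deposited table. Of Tfeb relatives and their nutrient-sensing regulators 1 was higher and 1 lower of 19, 10.5% called. Mitf fell from 5.37 to 3.64, and Fnip2, a partner of folliculin, rose from 3.66 to 5.71, by the authors' deposited table. The other relatives, named after their values were seen, were not called: Tfe3 was at 30.1 and 33.1 and Tfec at 93.4 and 74.4 (adjusted p = 0.623 and 0.0872, the authors' deposited table).

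Genes that tag and sort enzymes to lysosomes had 0 higher and 1 lower of 13, 7.69% called beside 13.5% of all tested genes. The lower one was the sorting receptor Sort1, which fell from 9.61 to 6.63 by the authors' deposited table. Genes of tethering and lysosome movement had 2 higher and 0 lower of 14, 14.3% called. These were Bloc1s2, a subunit of complexes that position lysosomes, which rose from 46.9 to 84.9 (1.81-fold), and Plekhm1, an adaptor of lysosome fusion, which rose from 13.6 to 19.1, by the authors' deposited table. Of 21 autophagy genes 0 were higher and 3 lower (median -0.17), 14.3% called and so near the 13.5% of all tested genes. The autophagy receptors Nbr1 (15.4 to 10.7) and Calcoco1 (16.3 to 11.4) and the autophagosome protein gene Gabarapl1 (64.0 to 46.9) fell by the authors' deposited table. Taking the test statistic for a normal deviate left 1 of the 139 genes called higher and 2 lower.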

How the data were processed

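RNA of 3 wild-type and 3 Pim1 knockout libraries, made by a Smart-seq2 protocol per the labels' protocols, was compared by the authors in 1 table of 24312 rows. The deposited values, pooled by genotype, were read as FPKM from the column layout, which is that of a Cuffdiff gene comparison; the header names no unit. A test statistic, used as a score, a p-value and a q-value stand beside them, per the file headers. No aligner or annotation is named here: both are not given in the sources used. A gene was called where the deposited q-value was under 0.05. Adjusting the p-values again by Benjamini-Hochberg over 11079 tested rows gave the same q-values to within 5.28e-07.

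Log2 fold changes were computed from the 2 pooled values without a pseudocount. Each error is that fold change divided by the test statistic. Depth per library is unknown, and no counting error is given. Planned fits on values per library were not run. Genes and lists were chosen with earlier results of these data known. Every gene matched by the rule was named. Of each other lysosome list up to 3 called genes with the smallest q-value were named, with ties broken by the test statistic. The cell type lists were given as counts and sums, and only some of their called genes were named. The submitters' processing notes name mm10, but of 23045 matched symbols 12.8% of the loci overlapped their RefSeq gene of GRCm38.p6 although 99.5% shared its chromosome, so the build of the table's coordinates is unsettled and none were used with the reference. The steps of adjusting p-values and applying a threshold were run on simulated data. That run did not test the deposited p-values, on which the calls rest, because these came from the authors. Python 3.11.15, pandas 2.3.3, numpy 2.4.6, scipy 1.17.1 and matplotlib 3.10.9 were used.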

Additional observations from a re-analysis of the deposited data

How the results depend on the processing

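With the authors' statistic taken for a normal deviate, the calls of the 39 genes went from 2 higher and 2 lower to 0 and 0 (pump 0 higher, hydrolases and other proteins 0 lower), and those of the other lysosome lists to 1 higher and 2 lower. At an adjusted p under 0.01 there was 1 higher, Atp6v0a1 of the pump, and 1 lower, Asah1 of the hydrolases. Counts stayed within 1.5 times under a mean of at least 1 or 10, an adjusted p under 0.1 and without genes within 10 Mb of Pim1. A median was counted as moved where its sign turned or its size changed by over 1.5 times, a rule chosen after these values were known. On the log2 scale the median of the 39 genes, -0.00053, became -0.0016 with a mean of at least 1, 0.0200 with a mean of at least 10, -0.0131 under median centring, -0.0043 under quantile normalization and -0.0027 without genes within 10 Mb of Pim1. That of the pump, 0.07, became 0.0314 without genes near Pim1. That of the hydrolases and other proteins, -0.05, became -0.0243 with a mean of at least 10 and -0.0325 under quantile normalization. That of the other lysosome lists, 0.02, became 0.00602 with a mean of at least 1 or 10, 0.0025 under median centring, -0.0089 under quantile normalization and 0.0021 without genes near Pim1. Under quantile normalization 2 of the 39 fold changes had the other sign and under median centring 1. No paired analysis was possible because the table pools the libraries of a genotype, and for the same reason no library was left out. Pooled values limit what depth and spread can show.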
